A study of Mus musculus with 2 samples.

Results

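Of the 1280 HP1β peaks found in mouse embryonic stem cells, 477 lay outside genes. A peak was counted as intergenic when its midpoint fell in no gene body of any type in the GENCODE vM1 annotation, and neither in the 5 kb upstream nor within 1 kb on either side of any transcript start. These 477 peaks made up 37.3% of the list (Wilson 95% interval 34.7% to 39.9%). The other 567 and 236 peaks lay in introns and in exons or start zones. The same rule kept 54.2% of an even grid of ungapped genome positions, 1 for every 10 kb. For 473 of the 477 peaks no base at all reached into a gene body or a start zone.

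The study recorded HP1β binding with 1 ChIP library from E14 ESCs of strain 129P2/Ola, and 1 library of input DNA without antibody served as its control. Both came from a single unmodified line that was grown with LIF on gelatine in a commercial stem cell medium, according to the labels. The peak list gives positions and scores but no read numbers, so the depth behind a peak is unknown. With 1 library of each kind there is no spread between samples, no test of any difference was possible, and each interval below covers only the counting of peaks.

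HP1β, the product of Cbx1, is a chromatin protein whose chromodomain binds histone H3 methylated at lysine 9 and whose chromoshadow domain forms dimers and holds partner proteins. In differentiated mouse cells it is known for the compacted, gene-poor chromatin around centromeres. The sequence between genes ranges from short spacers within gene-rich stretches to gene deserts, which are long, AT-rich intervals, and it also holds arrays of duplicated gene families.

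The sequences of 6 peaks are shown as examples, and they do not cover the peaks with repeated sequence described below. Sequences are from the plus strand of mm9, and capitals mark each CpG dinucleotide. The first 2 are the peaks with the highest scores. One, at chr12:116859363-116859724 and shown by its central 300 bases (chr12:116859394-116859693), lay in the immunoglobulin heavy chain locus, and the other (chr1:173472535-173472811) lay upstream of Itln1. Next come the peak farthest from any gene (chr1:116953688-116953934) and the peak nearest to one, at the 3′ end of Zfp112 (chr7:24912999-24913256). The last 2 have the pluripotency gene Nr5a2 (chr1:138703871-138704140) and the nuclear membrane gene Lbr (chr1:183723795-183723994) as their nearest protein-coding genes. These peaks lay 36.2 and 21.6 kb from the genes, and a U6 snRNA gene was nearer to the Lbr peak, at 19.8 kb.
Gm16708 peak, centre: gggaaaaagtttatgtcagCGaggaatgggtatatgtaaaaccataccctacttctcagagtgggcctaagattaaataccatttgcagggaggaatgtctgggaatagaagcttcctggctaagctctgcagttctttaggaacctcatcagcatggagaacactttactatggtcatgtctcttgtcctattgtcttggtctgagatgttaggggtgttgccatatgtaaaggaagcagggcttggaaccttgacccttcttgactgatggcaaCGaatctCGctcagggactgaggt
Itln1 peak: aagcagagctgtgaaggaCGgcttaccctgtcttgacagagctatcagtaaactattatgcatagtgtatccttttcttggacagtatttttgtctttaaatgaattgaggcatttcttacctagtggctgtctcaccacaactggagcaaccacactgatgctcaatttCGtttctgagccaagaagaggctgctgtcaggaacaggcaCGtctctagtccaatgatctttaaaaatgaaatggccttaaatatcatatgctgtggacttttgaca
Cntnap5a desert peak: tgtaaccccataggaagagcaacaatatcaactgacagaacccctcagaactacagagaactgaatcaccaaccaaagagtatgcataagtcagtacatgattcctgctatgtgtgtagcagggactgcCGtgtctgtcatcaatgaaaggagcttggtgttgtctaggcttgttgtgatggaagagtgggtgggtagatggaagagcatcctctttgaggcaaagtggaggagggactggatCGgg
Zfp112 peak: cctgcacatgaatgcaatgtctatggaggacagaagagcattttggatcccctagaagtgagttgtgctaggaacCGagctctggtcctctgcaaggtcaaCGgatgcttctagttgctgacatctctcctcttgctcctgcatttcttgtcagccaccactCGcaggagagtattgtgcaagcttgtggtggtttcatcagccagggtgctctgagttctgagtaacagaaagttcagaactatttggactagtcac
Nr5a2 peak: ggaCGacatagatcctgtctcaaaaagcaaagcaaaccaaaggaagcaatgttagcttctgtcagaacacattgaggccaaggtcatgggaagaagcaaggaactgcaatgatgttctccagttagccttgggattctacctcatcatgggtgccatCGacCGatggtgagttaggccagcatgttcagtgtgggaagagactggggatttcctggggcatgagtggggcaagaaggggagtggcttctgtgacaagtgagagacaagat
Lbr peak: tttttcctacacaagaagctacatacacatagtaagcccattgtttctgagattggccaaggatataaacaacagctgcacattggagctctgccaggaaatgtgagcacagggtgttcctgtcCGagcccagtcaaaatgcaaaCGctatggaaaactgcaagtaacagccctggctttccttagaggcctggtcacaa

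All 6 were made of 50-mers that occur once in the assembly, and they held 2 or 3 CpG dinucleotides each. Every intergenic peak held fewer CpG dinucleotides than its C and G content would give, but no CpG ratio was computed for the grid. The median ratio of observed to expected CpG was 0.165 (0 to 0.823), 76 peaks (15.9%) held no CpG, and 7 had a ratio over 0.6. The median ratio was 0.175 in intronic peaks and 0.205 in peaks of exons and start zones. Both of these classes also included peaks without CpG. GC content was instead high for sequence between genes, at a mean of 47.0% (27.3% to 66.5%) against 40.7% in 250 bp windows at the grid positions that the rule kept. Intronic peaks had 46.8% and peaks in exons or start zones 47.4%, so the 3 classes were close to each other.

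Few short words were common to the peaks. Of the 95997 different words of 10 letters in the intergenic peaks, read on both strands, 28 occurred in 10 or more peaks. The most widespread was CACACACACA, in 23 peaks (4.82%), and 4.73% of the genic peaks and 4.42% of the 250 bp windows held it. The next 3 by number of peaks overlap it. ACACACACAC was found in 20 peaks (4.19%, against 4.36% of genic peaks and 4.22% of windows) and ACACACACAT in 19 (3.98%, against 2.74% and 2.09%). CACACACATG was found in 16 (3.35%, against 1.87% and 0.75%). These 4 words were picked because they had the most intergenic peaks, which favours the intergenic share in each comparison. The intergenic peaks were also 68 to 1718 bp wide, where the windows had 250 bp. A match is no sign of a binding site.

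The intergenic peaks lay close to genes. The median distance from a peak's midpoint to the nearest gene body was 19.5 kb (95% interval of the median 17.1 to 22.9 kb), where the grid positions had 45.4 kb. The middle 50% of peaks lay between 9.54 and 53.1 kb, and the whole range ran from 0.157 to 627.5 kb. Distances to the nearest transcript start had a median of 23.8 kb against 53.7 kb for the grid. For the nearest protein-coding gene the medians were 26.4 and 93.4 kb. Per 100 Mb of kept sequence there were 34.4 intergenic peaks (31.4 to 37.6) in all. This density was 54.3 (45.3 to 64.5) within 10 kb of a gene and 60.3 (49.8 to 72.4) from 10 to 20 kb. It was 34.9 from 20 to 50 kb and 30.2 from 50 to 100 kb. Farther out it came to 16.3 (11.4 to 22.7) from 100 to 200 kb and 10.3 (6.38 to 15.8) beyond 200 kb, where 8 of the 21 peaks were on chromosome Y.

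**Figure D1:**
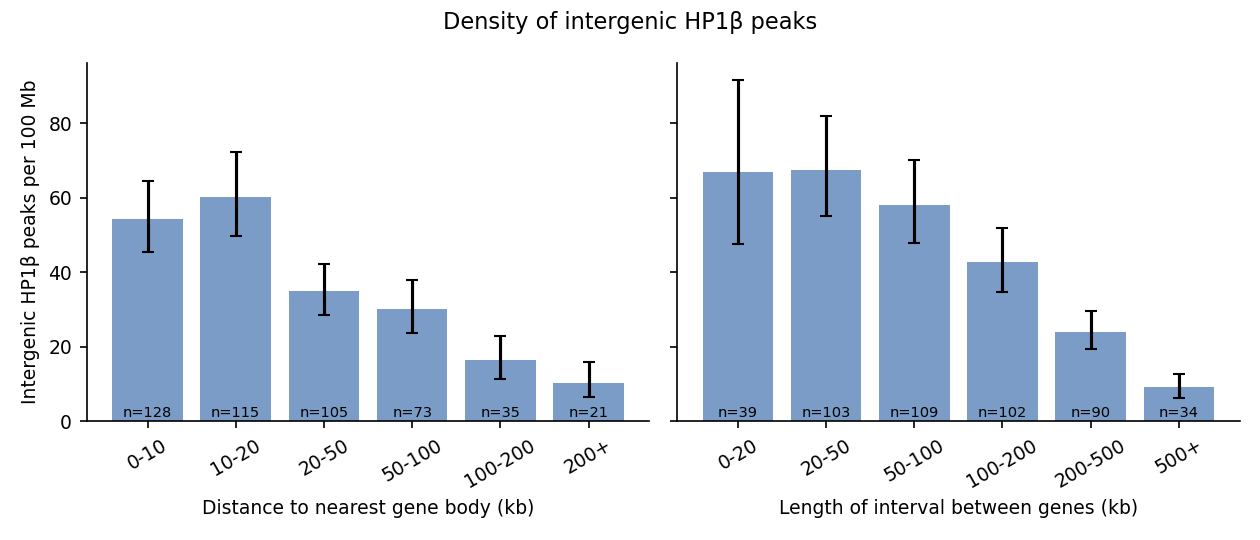
Intergenic HP1β peaks per 100 Mb of kept sequence (bars) by distance to the nearest gene body (left, kb) and by length of the interval between neighbouring gene bodies (right, kb). Lines are exact Poisson 95% intervals of the peak count and n is the number of peaks. The density was 54.3 and 60.3 in the 2 classes nearest to a gene and 10.3 beyond 200 kb, and 9.11 in intervals of 500 kb or more.

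The nearest gene was protein-coding for 334 peaks, or 70% against 52.2% of grid positions. Pseudogenes were nearest to 39 peaks (8.18% against 14.5% of the grid), lincRNAs to 22 (4.61% against 2.72%), snRNAs to 20 (4.19% against 9.21%) and snoRNAs to 13 (2.73% against 8.26%). Up to 5 kb from the nearest gene every peak lay on its 3′ side, which the rule fixes because it removes the 5 kb before a start. From 5 to 20 kb, where both sides were open to peaks, there were 114 peaks on the 5′ side and 82 on the 3′ side, with densities of 66.5 (54.8 to 79.9) and 50.1 (39.9 to 62.2) per 100 Mb. The density was 42.4 (35.3 to 50.5) between divergent genes, 30.2 (24.8 to 36.5) between convergent genes and 32.3 (28.3 to 36.7) between genes on the same strand. The intervals overlapped in both comparisons.

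At the borders of the rule, the peak just beyond the upstream zone lay 5002 bp before a start of Gm11747 (chr11:118321193-118321428, score 38.5), and the nearest one left out lay 4968 bp before a start of BC031353 (chr9:74880283-74880622, score 39.99). The intergenic peak closest to any start was 1036 bp from that of Gm9790, and a peak left out was 960 bp from that of Gm7850. The intergenic peak closest to a gene body was 157 bp past Zfp112, while a peak left out had its midpoint 28 bp inside Itln1 (chr1:173465319-173465477, score 31.56).

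Gene deserts, taken as intervals of at least 500 kb between gene bodies of any type, held 34 peaks. That was 7.13% of the intergenic peaks (5.15% to 9.80%), while 26.9% of the kept grid positions lay in deserts. Gene-near sequence, within 20 kb of a gene and outside deserts, held 241 peaks, 50.5% against 29.6% of the grid. The remaining 202 peaks (42.3% against 43.5%) lay between these. Per 100 Mb the densities were 58.7 (51.5 to 66.6) near genes, 33.5 (29.1 to 38.5) between and 9.11 (6.31 to 12.7) in deserts. By interval length, the density was 67.0 in intervals under 20 kb, 67.5 from 20 to 50 kb, 58.1 from 50 to 100 kb, 42.6 from 100 to 200 kb and 24 from 200 to 500 kb.

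GC content moved with these distances. On the grid, the mean GC content was 42.5% within 10 kb of a gene and 38.2% beyond 200 kb. Intergenic peaks numbered 8.25 per 100 Mb in windows under 40% GC, 28.6 from 40 to 45%, 73.4 from 45 to 50% and 97.8 (82.3 to 115.4) at 50% or more. Within each of these 4 GC classes the peaks were nearer to genes than the grid. Median distances were 24.8 against 61.2 kb in the lowest class, 18.3 against 42.8 kb and 19.8 against 32.7 kb in the middle classes, and 17.9 against 25.6 kb in the highest. The desert shares were 9.43% against 33.9%, 10% against 24.5%, 6.52% against 19.4% and 5% against 14.8%, and were below the grid in all 4 classes. The desert shares rest on 5, 10, 12 and 7 peaks.

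**Figure D2:**
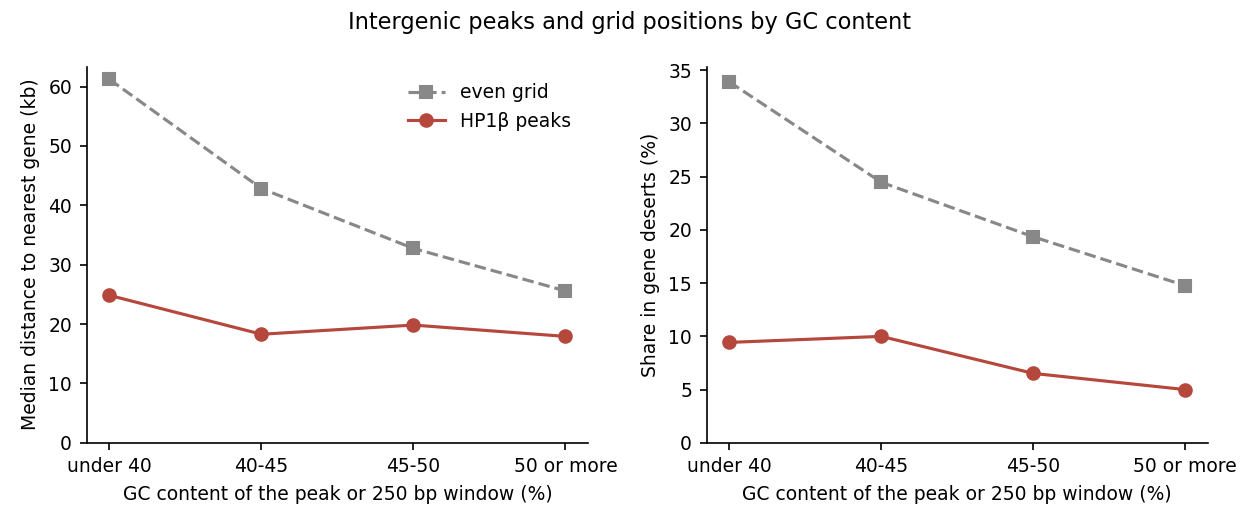
Median distance to the nearest gene body (left, kb) and share in gene deserts (right, %) of intergenic HP1β peaks (circles) and of kept grid positions (squares), by GC content of the peak or of the 250 bp window. Peaks lie below the grid in every class, from 24.8 against 61.2 kb under 40% GC to 17.9 against 25.6 kb at 50% or more.

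The 34 desert peaks were spread over 28 intervals, of which 3 held 2 peaks and 1 held 4. Their median width was 209.5 bp (95% interval of the median 186 to 254 bp) and their median score 32.2 (30.7 to 34.1), against 245 bp (236 to 252) and 33.7 (32.9 to 34.8) for gene-near peaks, and these intervals overlap. All 50-mers were unique in 30 desert peaks (88.2%), in 207 gene-near peaks (85.9%) and in 163 of those between (80.7%). A score of 40 or more was reached by 3 desert peaks (8.82%) and 35 gene-near peaks (14.5%). 26 of the desert peaks lay over 100 kb from a gene of any type.

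10 of the desert peaks were on chromosome 1, most of them in a stretch around Cntnap5a, which encodes a neuronal cell adhesion protein of the neurexin superfamily. The interval of 1721 kb between the lincRNA gene 9330185C12Rik and Cntnap5a (chr1:115860712-117581332) held 4 peaks. A pair near the lincRNA gene (chr1:115883237-115883427 and chr1:115886911-115887206) had scores of 30.69 and 31.56. The other two were the intergenic peaks farthest from any gene, at 600.6 kb (chr1:116461111-116461432, score 30.34) and 627.5 kb (chr1:116953688-116953934, score 32.81). All 4 were below the median score of the intergenic peaks. On the other side of Cntnap5a, another peak for which it was the nearest protein-coding gene lay 843.6 kb away (score 36.53). Dsel, a dermatan sulfate epimerase-like gene, was the nearest protein-coding gene of 3 desert peaks at 192.6 to 1665 kb.

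3 further peaks were over 385 kb from a gene. One on chromosome 12 (chr12:95628877-95629063, score 31.38) lay 462.1 kb from Gm9726. Another on chromosome 6 (chr6:110159227-110159398, score 38.06) lay 436.3 kb upstream of Grm7, which encodes a metabotropic glutamate receptor. The third, on chromosome 9 (chr9:46948528-46948811, score 42.77), lay 389.6 kb upstream of Cadm1, which encodes an immunoglobulin-type cell adhesion molecule, with a U6 snRNA gene as its nearest gene of any kind. A second peak in the interval of the Cadm1 peak (chr9:46687295-46687619) had the score 45.37, and these were 2 of the 3 desert peaks that scored at least 40. The remaining one, 74 bp wide (chr8:52889285-52889358, score 49.91), had only 43.2% unique 50-mers.

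Peaks were narrow and their scores low throughout. The MACS score is the p-value that the authors obtained for a peak against input, as −log10 multiplied by 10. The median score of the intergenic peaks was 33.5 (30.01 to 63.52), against 33.2 in introns and 33.0 in exons and start zones. A score of 40 or more was reached by 69 intergenic peaks (14.5%), 13.6% of intronic peaks and 11.9% of those in exons or start zones. The median width was 245 bp (68 to 1718 bp; 95% interval of the median 239 to 251 bp), against 253 bp (246 to 261) and 251.5 bp (238 to 260).

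10 intergenic peaks (2.10%) scored 50 or more, against 1.59% of intronic peaks and 2.12% of those in exons or start zones. The highest scores in these other classes were 73.48 and 87.43. Of the 10 peaks, 7 lay within 20 kb of a gene, and 50.5% of all intergenic peaks were gene-near. Wholly unique 50-mers made up 7 of the 10, against 83.9% of all intergenic peaks. The highest intergenic score, 63.52, belonged to the peak 1.83 kb downstream of Gm16708, an immunoglobulin heavy chain variable segment. A second peak 7.91 kb away (chr12:116850999-116851457), next to Ighv1-67, scored 52.07. The peak with the score 59.76 lay 7.25 kb upstream of Itln1, a gene for a carbohydrate-binding lectin. Its nearest other peak, 7.06 kb away, was the one at the border of the Itln1 gene body. The next in order was an 80 bp peak near Vmn2r121 (chrX:121273587-121273666, score 58.97), a vomeronasal receptor gene, with 55% unique 50-mers. A peak 8.0 kb downstream of Mepe, which encodes a phosphoglycoprotein of bone matrix, scored 57.65 (chr5:104775469-104775787). A peak 16.7 kb upstream of Arl8b, which encodes a small GTPase of lysosomes, scored 55.62 (chr6:108716216-108716497).

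Immunoglobulin variable segments were the nearest genes of 5 peaks, 1.05% of the intergenic peaks against 0.385% of the grid. Beside the pair in the heavy chain locus, there were 3 peaks in the kappa light chain locus on chromosome 6. A pair lay next to Igkv17-134 (chr6:67642629-67642707 and chr6:67644122-67644371), with scores of 54.47 and 42.45 and with 100% and 52% unique 50-mers. The third, next to Igkv2-109 (chr6:68265426-68265651), scored 30.63. Of these 5 peaks, 4 were above the median score of the intergenic peaks.

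Repeated sequence occurred in a larger share of intergenic than of intronic peaks. All 50-mers of a peak occurred once in the assembly in 400 of 477 peaks (83.9%, 80.3% to 86.9%), against 92.6% (90.1% to 94.5%) in introns and 84.7% (79.6% to 88.8%) in exons and start zones. The sequence between genes was also the most repeated on the grid, where 85.8% of kept intergenic positions, 91.9% of intronic positions and 91.4% of those in exons and start zones had a unique 50-mer. Of all 50-mers in the peaks, 93.8%, 98.3% and 97.7% were unique in these classes, so each class of peaks was above its own grid value. Of the 77 peaks with a repeated 50-mer, 26 had at most 3 copies of any, and 22 had a 50-mer with over 100 copies. In 22 of the 77 at least 50% of the repeated 50-mers had another copy within 1 Mb, and in 44 none had. The 77 had a median score of 34.6 (34.0 to 35.7) against 33.1 (32.6 to 33.7) for the 400, and a median distance to a gene of 24.1 kb (14.7 to 47.0) against 18.7 kb (16.6 to 22.5). The authors kept only reads with unique alignments, and the part of this filter in these differences was not tested.

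**Figure D3:**
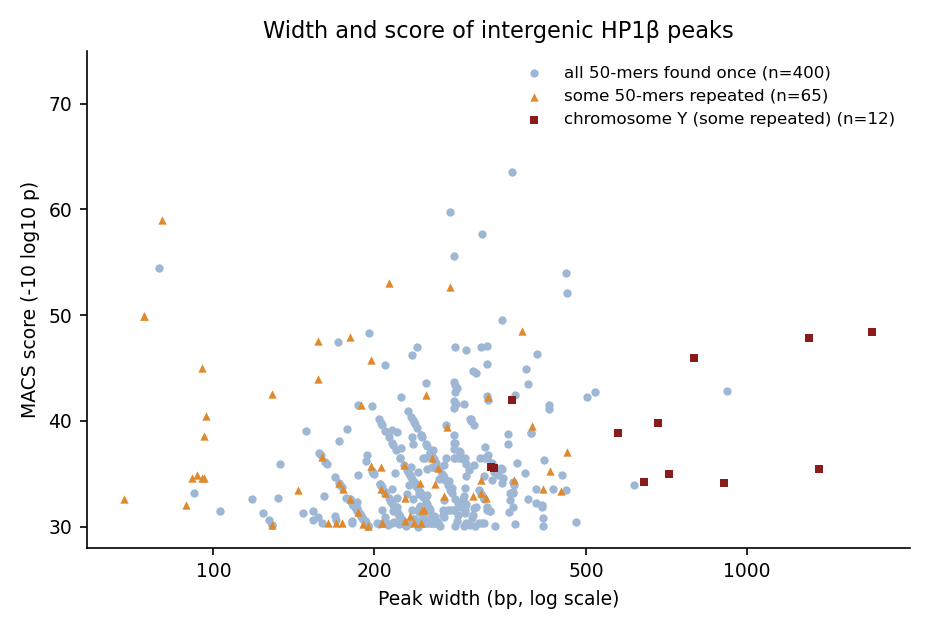
Width (bp, log scale) and MACS score of the 477 intergenic HP1β peaks. Each point is a peak, grouped by whether all of its 50-mers occur once in the assembly (400 peaks), some are repeated (65 peaks) or it lies on chromosome Y (12 peaks, all with repeats). Chromosome Y holds the 3 widest peaks, of 1308 to 1718 bp, and repeats are frequent among the narrowest.

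Both ends of the width range held mostly peaks with repeated sequence. Of the 14 peaks under 100 bp, 2 consisted wholly of unique 50-mers, and 6 scored 40 or more. The narrowest, of 68 bp (chr8:19772666-19772733, score 32.65), lay 58 bp from a second peak and 12.0 kb from the pseudogene Gm10060, and a 74 bp peak 6.54 kb downstream of Serpinb6d, a gene of the serpin protease inhibitor family, scored 49.91. At the other end, 9 of the 13 peaks of 500 bp or more were on chromosome Y, and the other 4 consisted wholly of unique 50-mers. From 200 bp to under 300 bp, the class with the most peaks, 229 of 251 consisted of unique 50-mers.

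A minority of intergenic peaks had another intergenic peak close by. The share that evenly placed peaks would give was not computed, so clustering beyond that share was not tested. With at most 100 kb between the edges of neighbours, 68 intergenic peaks (14.3%, 11.4% to 17.7%) fell into 27 chains. Of these chains, 22 were pairs, 1 was a trio and 4 were longer. Within 10 kb, 38 peaks (7.97%) had an intergenic neighbour. The median distance from an intergenic peak to the nearest other intergenic peak, on either side, was 950 kb (846 to 1052 kb). When neighbours of any class were counted, 20.8% (17.4% to 24.6%) of intergenic peaks had another peak within 100 kb, against 27.2% (23.7% to 31.0%) of intronic peaks and 29.2% (23.8% to 35.3%) of peaks in exons or start zones. Within 10 kb these shares were 8.60%, 5.47% and 8.90%.

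The longer chains lay next to members of duplicated gene families or on chromosome Y. The longest, of 8 peaks (chrY:2795182-2902223), lay 243 to 349 kb from Gm3395, its nearest gene, with scores of 34.1 to 48.4. 7 of the 8 followed each other at gaps of at most 10 kb. A chain of 4 near Gm6026 (chrY:1788396-1791951) spanned 3.56 kb, with scores of 35.59 to 41.96. A chain of 5 (chr13:12925343-12990782) lay between Prl2c3 and Prl2c2, which encode proliferins, placental hormones of the prolactin family, and its scores were nearly alike, at 32.93 to 34.42. The 4 peaks next to Vmn2r121 (chrX:121264184-121299930) had scores of 47.55, 58.97, 42.22 and 35.70. The trio lay 5.47 to 13.3 kb downstream of the zinc finger gene Zfp868 (chr8:72121373-72129495), with scores of 35.85, 48.47 and 35.29.

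Of the 24 peaks in these 5 chains, 1 consisted wholly of unique 50-mers, the one next to Prl2c2. The unique share was 34.4% to 60.3% in the Gm3395 chain and 27.2% to 59.3% in the trio at Zfp868. Pairs differed from the longer chains in this, with 37 of their 44 peaks wholly unique. Among all members, 55.9% of peaks in chains and 88.5% of single peaks were wholly unique. In the trio at Zfp868 and the Gm6026 chain, no repeated 50-mer had another copy within 1 Mb. The share with such a copy was 0% to 3.15% per peak in the Gm3395 chain. It was 0% to 81.2% at Vmn2r121 and 0% to 100% at Prl2c3.

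**Figure D4:**
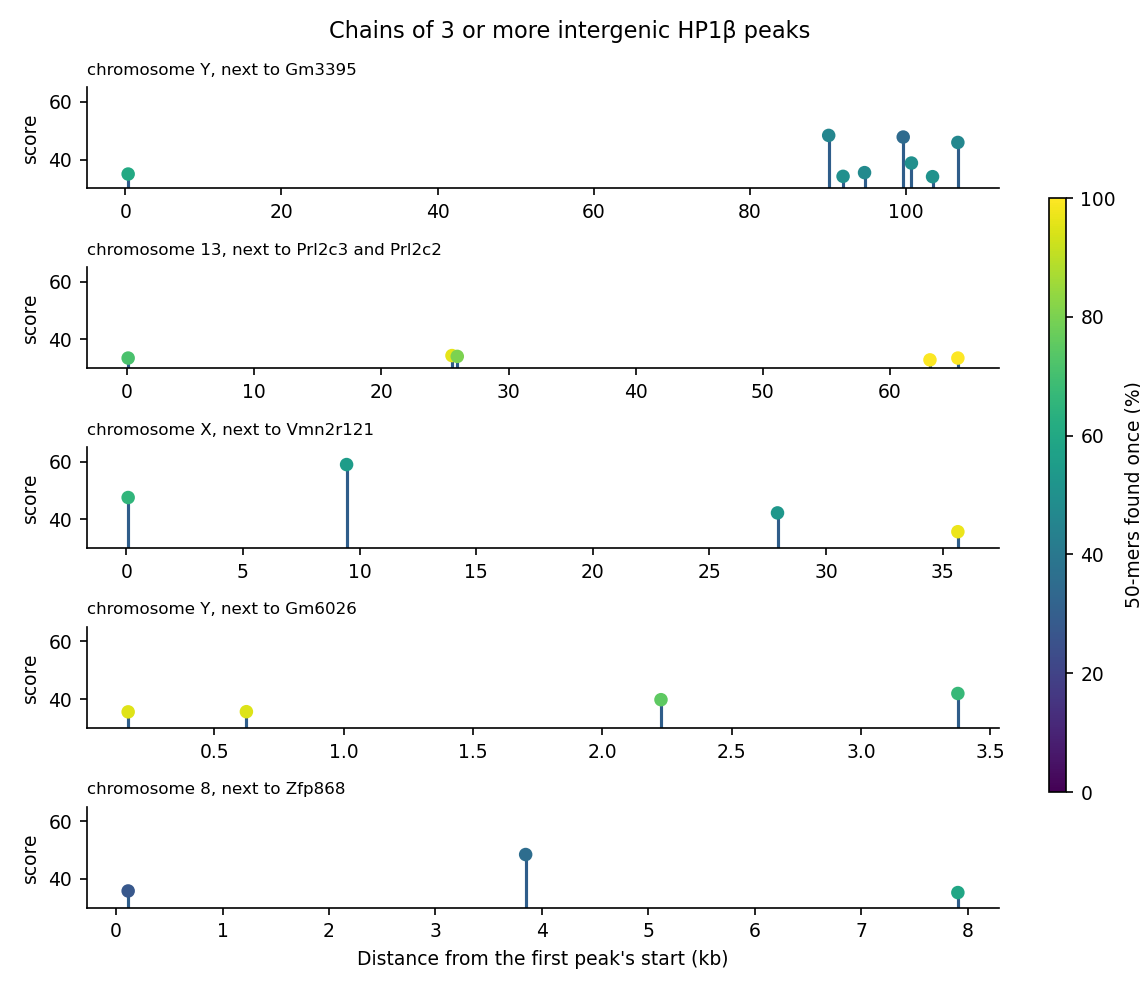
The 5 chains of 3 or more intergenic HP1β peaks, each drawn from the start of its first peak (kb, each panel on its own scale), with the MACS score of each peak on the vertical axis, which starts at 30. Colour gives the share of a peak's 50-mers that occur once in the assembly (%). The Gm3395 chain has 1 peak apart from the other 7, and the highest score in a chain is 58.97 near Vmn2r121.

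By chromosome, the density of intergenic peaks was highest on Y, with 12 peaks in 1.97 Mb of kept sequence (609 per 100 Mb, 315 to 1064), all of them with repeated 50-mers and none in a gene or start zone. Among the rest it ran from 9.88 (4.74 to 18.2) on X to 75.3 (57.0 to 97.5) on chromosome 6. X held 10 peaks, all of them with repeated 50-mers, and 8 of these lay between positions 120000001 and 125000000, where the Vmn2r121 chain lies. Distal chromosome 6, from position 105000001 to the end, held 42 intergenic peaks among 125 peaks of all classes, at 199 per 100 Mb (143 to 269). Chromosome 1 from 115000001 to 135000000 held 17 of 38, at 148 per 100 Mb (86.0 to 236), and 6 of these 17 were desert peaks. These regions were taken because earlier results had shown an excess of peaks there. The intergenic share was 33.6% and 44.7% of the peaks in these regions and 37.4% outside both. On chromosome 4 from 145000001 to 150000000, 2 of 22 peaks were intergenic. The rule kept only 1.13 Mb of this region, so the density of intergenic peaks there was 177 per 100 Mb (21.4 to 639). Outside these 3 regions and Y, 37.3% of 1083 peaks were intergenic, and their density was 29.9 (27.1 to 33.0).

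**Figure D5:**
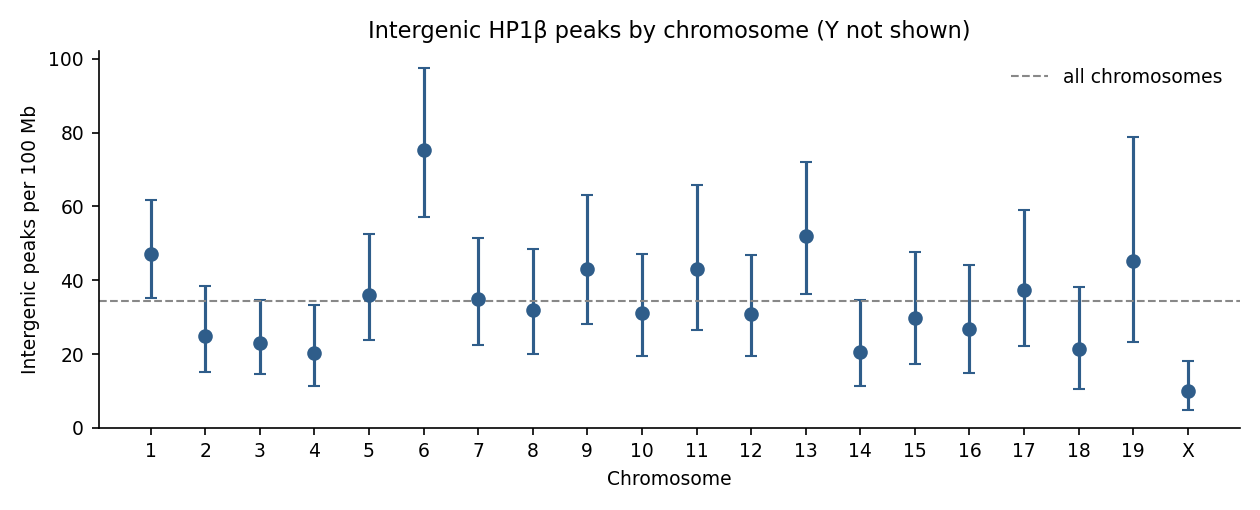
Intergenic HP1β peaks per 100 Mb of kept sequence on each chromosome but Y, with exact Poisson 95% intervals of the peak count, and the value over all chromosomes (dashed line, 34.4). Chromosome 6 has 75.3 and X has 9.88. Of the other intervals, those of chromosomes 1 and 13 lie above the line, that of chromosome 4 below it, and the rest cross it.

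On the chromosomes other than Y, density was lower toward the centromeric end. The 12 peaks of chromosome Y, in 1.97 Mb of kept sequence, all lay between positions 1 and 5000000 and are not counted here. They would fall in the first class below and raise its density. In the first 5 Mb after the gap at that end there were 9 peaks, or 15.9 per 100 Mb (7.25 to 30.1), and from 5 to 10 Mb and 10 to 20 Mb there were 19.9 and 17.6. It was 25.5 (20.3 to 31.6) from 20 to 50 Mb and 41.2 (37.0 to 45.8) beyond, or 37.1 (33.0 to 41.5) without distal chromosome 6. On the grid, the share of unique 50-mers was 79.3% in the first 5 Mb and 87.3% beyond 50 Mb without distal chromosome 6, with GC means of 40.5% and 40.9%. The part of unique sequence in the lower density was not tested. Satellite arrays next to centromeres are gaps in the assembly and were not analysed here.

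The 477 peaks had 438 different nearest protein-coding genes. Of these genes 417 were nearest to 1 peak, 13 to 2 and 8 to 3 or more, among them Gm3395 with 8, Cntnap5a with 5 and Prl2c3, Vmn2r121 and Gm6026 with 4 each. Nckap5 on chromosome 1 had 3, at 23.2 to 176.6 kb.

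Pluripotency genes were the nearest coding gene of 2 peaks (0.419% against 0.242% of the grid), from a list of 29 found in the annotation. One lay 36.2 kb downstream of Nr5a2 (score 32.54), which encodes a nuclear receptor that promotes Pou5f1 expression, and the other 44.9 kb downstream of Dppa2 (chr16:48364602-48364879, score 33.5), which encodes a DNA-binding protein of pluripotent and germ cells. Pou5f1, Nanog, Sox2 and the other 24 genes of the list were the nearest coding gene of no intergenic peak. Peaks inside genes or start zones were not counted for these lists. Of 30 genes for heterochromatin proteins 1 was the nearest coding gene of an intergenic peak (0.210% of peaks against 0.0714% of the grid). That peak lay 21.6 kb downstream of Lbr (score 34.94), the gene of the lamin B receptor, an inner nuclear membrane protein that binds HP1.

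Zinc finger genes, many of which encode KRAB repressors that recruit heterochromatin to repeats, were nearest to 11 peaks (2.31% against 1.25% of the grid), at 63.7 per 100 Mb (31.8 to 114.0). Besides the trio at Zfp868, the peaks at Zfp112, Zfp938 (chr10:81685721-81686109, score 43.53) and Zfp61 (chr7:25069215-25069574, score 32.51) lay 0.157, 1.68 and 2.93 kb downstream of the genes. Olfactory and vomeronasal receptor genes had 12 peaks (2.52% against 2.54%), of which 4 were at Vmn2r121. Developmental transcription factor families had 9 peaks (1.89% against 1.72%) at 18.8 to 253.1 kb. They included 1 each at Pax2 (23.4 kb), Hoxa13 (18.9 kb), Sox6 (18.8 kb), Foxo3 (59.6 kb, score 40.22) and Irx4 (253.1 kb). Channel and glutamate receptor genes had 3 (0.629% against 1.77%), at Grm7, Kcnj8 and Cacng3. Cadherin and protocadherin genes had none, where 2.48% of grid positions had one as their nearest coding gene. A count of 0 allows a density of up to 10.7 per 100 Mb, against 34.4 in all kept sequence and 9.11 in gene deserts. How much of the sequence nearest to these genes lies in deserts was not computed. The number of peaks per list was small, and no list was tested.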

How the data were processed

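The deposited file held 1 score per peak, which the authors made with MACS 1.4 (p-value cutoff 0.001) from Bowtie alignments to mm9 that were unique with at most 1 mismatch. ChIP and input had 1 library each, and the depth is not given. A total of 0 columns of other samples were left out. The members, gene lists and regions were chosen with earlier results of these data known.

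Peaks were placed by midpoint on NCBIM37 (mm9) with the 37273 genes of GENCODE vM1 on these chromosomes, and coordinates count from 1. The same rule was applied to ungapped grid positions every 10 kb, each with a window of 250 bp for GC content. A 50-mer was unique when it had a single exact match in the assembly, counting both strands. The words were counted in 1 of every 5 kept windows. The reference does not mark repeats in lower case, so repeat shares were not computed. Shares have Wilson intervals, densities exact Poisson intervals and medians binomial intervals, all at 95%. The peaks named were the 5 with the highest scores, the 5 farthest from genes, the 3 widest and narrowest, those at the borders of the rule, chains of at least 4, genes nearest to 4 or more peaks, and pluripotency and heterochromatin genes. Other peaks named were picked after their values were seen. The rule, distances, chains and 50-mer counts were tested on simulated data. Alternatives were a higher score, other distances, protein-coding genes only, and chromosomes or regions left out. Python 3.11.15, numpy 2.4.6, pandas 2.3.3, scipy 1.17.1, numba 0.67.0 and matplotlib 3.10.9 were used.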

Additional observations from a re-analysis of the deposited data

How the results depend on the processing

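No paired analysis was possible because ChIP and input had 1 library each. Of 48 values under alternative settings, 38 stayed within the 95% interval of the value reported and 10 left it, and 11 of the 48 were chosen after the data were seen. At a score of 40 or more, the desert share was 4.35%, from 3 peaks, the median width 284 bp and the median score 44.5, which the score limit itself raises. With protein-coding genes only, 41.7% of peaks were intergenic (57.7% of the grid), the median distance was 26.2 kb (89.6 kb) and the desert share 17.8% (49.2%), since fewer genes divide the genome. Starts widened to 10 kb upstream left 32.8% of peaks (50.6%). Deserts of at least 200 kb held 26% of peaks (54.0%) and those of at least 1 Mb 2.94% (9.71%). At a chain distance of 200 kb, 21% of peaks were in chains. Wherever the grid gave a value, the peaks' value stayed below it. Among the alternatives added later, without chromosome Y 12.0% of peaks were in chains, and without distal chromosome 6 and the chromosome 1 region the desert share was 5.98%. With 1 library, differences between classes cannot be separated from variation between libraries.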
